A study of Mus musculus with 2 samples.

Results

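Retinoic acid, the active derivative of vitamin A, is made in 2 oxidation steps. Rdh10 encodes the retinol dehydrogenase that turns retinol into retinal, and Aldh1a2 (also called Raldh2) encodes the aldehyde dehydrogenase that turns retinal into retinoic acid in the early embryo. In the mouse, Aldh1a2 is known as a gene of mesoderm and mesenchyme, and dorsal pancreas formation requires it. Aldh1b1 encodes a mitochondrial aldehyde dehydrogenase that marks progenitor cells of the developing pancreas. Retinoic acid is carried in the cell by Crabp proteins, acts through nuclear receptors of the Rar and Rxr families, and is degraded by Cyp26 enzymes.

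These 3 genes were described in RNA sequencing of mouse pancreas at stage e12.5, with mutant embryos labelled Pdxcre;Gata4fl/fl;Gata6fl/fl set against controls. The mutant library was made from 12 pooled pancreata and the control library from 6, so there was 1 library per genotype. The series title adds the term Tom to the mutant genotype without spelling it out, and what alleles the controls carry is not stated in the sources read. Pdx1-driven Cre acts in the pancreatic epithelium, whereas whole pancreata were dissected. Each value therefore sums over epithelium, mesenchyme and every other cell of the tissue taken. The members are the 3 rows, of 250 in the authors' deposited table, whose gene symbol is Rdh10, Aldh1a2 or Aldh1b1, and all 3 have values of at least 1 FPKM in both libraries. FPKM counts fragments scaled to transcript length and to the mapped fragments of the library.

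The genes were selected on the measured difference between these libraries, because the table holds only genes that the authors called changed and the members were picked with their values known. Their differences are therefore given as descriptions without a test. With no replicates, no value has an error and no difference has a replicate check. The authors' q-values imply that 14984 genes were tested, of which the table holds 1.67%. By size, a gene is called higher or lower here when log2((mutant FPKM + 1)/(control FPKM + 1)) is at least 1 in either direction and 1 library reaches 1 FPKM. By this rule 48.4% of the table was higher and 45.2% lower in the mutant, so a call within the table is the common outcome for any of its genes. With the median ratio of genes reaching 1 FPKM subtracted, 38 genes were higher and 114 lower. The depth is not known beyond the more than 20000000 mapped reads that the labels state, and Gata4 and Gata6 are outside the table, so the genotypes could not be checked against the targeted genes.

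The 3 genes did not move as one group: Aldh1a2 was higher in the mutant library, while Rdh10 and Aldh1b1 were lower. Aldh1a2, the enzyme of the second step, had 110.9 FPKM in the mutant library against 14.1 FPKM in the control library, a 7.85-fold difference. Rdh10, the enzyme of the first step, had 9.37 FPKM in the mutant library against 30.5 FPKM in the control library and was 3.25-fold lower. Aldh1b1 had 6.60 FPKM in the mutant library against 36.9 FPKM in the control library and was 5.59-fold lower. The 2 enzymes of consecutive steps thus differed in opposite directions, as did the 2 aldehyde dehydrogenases.

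**Figure D1:**
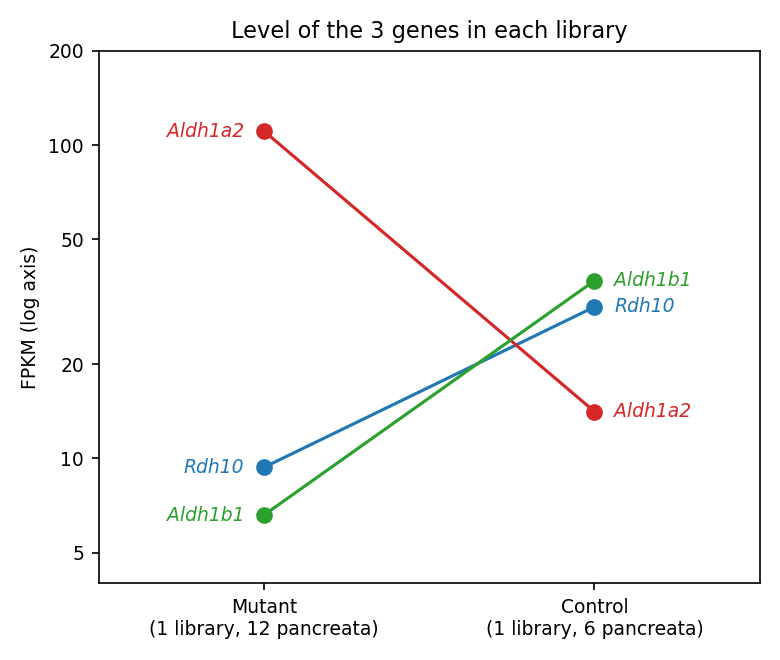
Level of Rdh10, Aldh1a2 and Aldh1b1 in FPKM on a log axis, in the mutant library on the left and the control library on the right; each point is 1 pooled library and a line joins the values of 1 gene. Aldh1a2 stands at 110.9 FPKM in the mutant, above both other genes, and at 14.1 FPKM in the control, below both.

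The order of the 3 levels was turned round between the libraries. In the mutant library Aldh1a2 was the highest, followed by Rdh10 and then Aldh1b1. In the control library Aldh1b1 was the highest, followed by Rdh10 and then Aldh1a2. With 1 library each, whether neighbours in these orders differ beyond the spread between embryos was not tested. Rdh10 and Aldh1b1 lay close together, at a level ratio of 1.42 in the mutant and 0.825 in the control.

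Ratios of 2 genes within a library cancel any factor applied to a whole library. The level of Aldh1a2 divided by that of Rdh10 was 11.8 in the mutant library and 0.464 in the control library. The mRNA of the second enzyme of the pathway was thus the more abundant of the pair per length in the mutant library, and that of the first enzyme in the control library. The quotient of these ratios, mutant over control, was 25.5. For Aldh1a2 divided by Aldh1b1 the level ratio was 16.8 in the mutant and 0.383 in the control, a quotient of 43.9. The summed level of both aldehyde dehydrogenases was 117.5 FPKM in the mutant library, of which Aldh1a2 made up 94.4%, and 51.0 FPKM in the control library, of which it made up 27.7%.

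Among the 250 genes of the table, Aldh1a2 stood out more by its amount than by its fold. Its level ranked second in the mutant library and 68 in the control library. Of the 133 genes with a positive ratio, its difference in level, 96.7 FPKM, was the second in size, and its ratio of 2.89 on the log2(FPKM + 1) scale ranked 12. Its rank by the plain fold, with no pseudocount, was 58 of those 133. In the authors' deposited table its log2 fold change was 2.97 and its q was 1.41e-10, the tenth smallest of the table (rank 10), where q compares the 2 libraries and holds no variation between embryos.

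Aldh1b1 and Rdh10 were both among the more abundant genes of the control part of the table. Aldh1b1 ranked 30 by level in the control library and 116 in the mutant library. Its ratio of −2.32 on the log2(FPKM + 1) scale ranked 25 in size among the 117 genes with a negative ratio, and the authors' deposited table gives it a q of 1.81e-05. Rdh10 ranked 35 by level in the control library and 90 in the mutant library. Its ratio of −1.60 on the same scale ranked 67 of 117, and its q in the authors' deposited table was 0.00794. Rdh10 therefore had the smallest change of the 3, and it is not called when 4-fold is required in place of 2-fold.

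**Figure D2:**
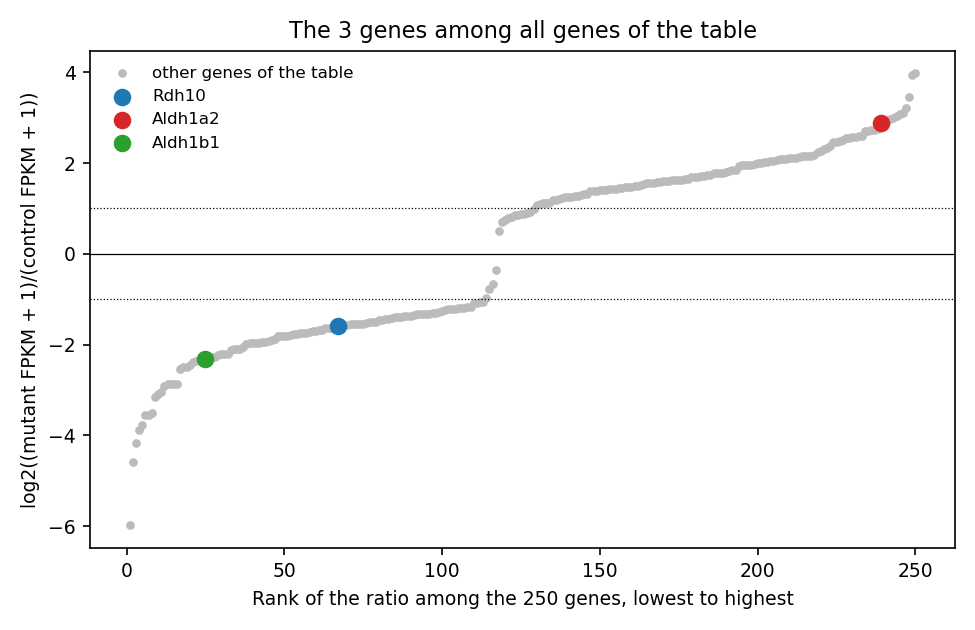
log2((mutant FPKM + 1)/(control FPKM + 1)) of the 250 genes of the table in rank order, lowest on the left, with the 3 genes coloured; dotted lines mark a ratio of 1 in either direction. Aldh1a2 lies near the upper end at 2.89, Aldh1b1 well below Rdh10 at −2.32 and Rdh10 in the middle of the lower genes at −1.60.

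On the mouse build mm9, Rdh10 (XLOC_000023) lies on chromosome 1 from 16095963 to 16122631, Aldh1a2 (XLOC_021102) on chromosome 9 from 71063596 to 71144050 and Aldh1b1 (XLOC_013728) on chromosome 4 from 45811894 to 45817480. The GENCODE annotation of the same build places all 3 on the plus strand. The main annotated transcript of Aldh1a2 has 14 exons over 80.5 kb, that of Rdh10 has 6 exons over 28.0 kb, and that of Aldh1b1 has 2 exons over 5.58 kb. No other annotated gene overlaps any of the 3 loci. The locus of Rdh10 in the table starts 108 bases after the annotated start and ends 1184 bases before the annotated end, while those of Aldh1a2 and Aldh1b1 differ from the annotation by at most 4 bases.

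Aldh1b1 alone of the 3 has another gene of the table within 1 Mb. This gene is Igfbpl1, which encodes a protein related to insulin-like growth factor binding proteins, and it is the next annotated coding gene. Its locus starts 4.90 kb beyond the end of Aldh1b1, on the minus strand, so that the 3′ ends of the 2 genes face each other. Igfbpl1 had 0.578 FPKM in the mutant library against 3.25 FPKM in the control library. The log2 fold changes in the authors' deposited table were −2.49 for Igfbpl1 and −2.48 for Aldh1b1. Strand-specific counting is not stated in the sources read, and reads shared between the neighbours were not tested for.

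The start regions of Aldh1a2 and Aldh1b1 are shown because these relatives, which differed in opposite directions, also differ in base composition there. Of the 3 genes, 2 matched the RefSeq promoter table (build GRCm38.p6), which gives 250 bases before and 50 after the start site. Capitals mark CG dinucleotides, and both sequences are from the plus strand, 5′ to 3′. Aldh1a2 lies at chr9:71215539-71215838 and Aldh1b1 at chr4:45798772-45799071 on that build.
Aldh1a2: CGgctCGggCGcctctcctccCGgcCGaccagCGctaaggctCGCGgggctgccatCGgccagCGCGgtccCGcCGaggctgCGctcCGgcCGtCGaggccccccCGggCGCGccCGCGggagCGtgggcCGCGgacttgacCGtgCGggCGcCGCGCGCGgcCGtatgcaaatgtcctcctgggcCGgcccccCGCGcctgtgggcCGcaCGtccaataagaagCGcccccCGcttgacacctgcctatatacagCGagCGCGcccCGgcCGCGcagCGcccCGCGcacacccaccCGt
Aldh1b1: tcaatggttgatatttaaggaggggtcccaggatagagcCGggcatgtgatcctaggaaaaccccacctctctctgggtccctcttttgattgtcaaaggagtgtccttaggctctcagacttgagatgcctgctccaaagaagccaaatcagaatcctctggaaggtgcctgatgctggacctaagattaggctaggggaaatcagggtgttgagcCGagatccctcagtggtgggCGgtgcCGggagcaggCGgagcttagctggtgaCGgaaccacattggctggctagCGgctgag

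The Aldh1a2 window holds 50 CG dinucleotides and 78.0% G and C, and the Aldh1b1 window holds 7 and 54.7%. Over the 32851 windows of this length in the table the medians are 7 CG dinucleotides and 52.7%, and 99.1% of the windows have fewer CG dinucleotides than Aldh1a2. Neither window holds a GATA hexamer (AGATAA or AGATAG or TGATAA or TGATAG) on either strand, which 29.8% of all windows do. Neither holds AGGTCA, the half-site bound by retinoic acid receptors, on either strand, which 16.3% of all windows do. These letter matches describe the windows only.

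Few other genes of retinoid metabolism and response were in the table. Of 65 annotated genes on the retinoid lists, 3 were in the table, namely Rdh10, Aldh1a2 and Tgm2, with 1 higher and 2 lower in the mutant. Tgm2, a transglutaminase whose transcription responds to retinoic acid, had 9.21 FPKM in the mutant library against 23.5 FPKM in the control library, and its log2(FPKM + 1) ratio was −1.26. It differed in the direction of Rdh10 and not in that of Aldh1a2. The table held 0 of 13 genes of retinol transport and storage, 0 of 3 Crabp and fatty acid binding genes, 0 of 3 Cyp26 genes and 0 of 6 receptor genes.

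Among 21 genes of enzymes that interconvert retinol and retinal, Rdh10 was the 1 in the table, and Dhrs3, which reduces retinal back to retinol, is outside it. Among 5 genes of enzymes that make retinoic acid, Aldh1a2 was the 1 in the table, and Aldh1a1 and Aldh1a3, which catalyse the same step, are outside it. Among 20 genes known to respond to retinoic acid, Tgm2 was the 1 in the table, and Rarb and Cyp26a1 are outside it. Of the 20 aldehyde dehydrogenase genes, Aldh1a2 and Aldh1b1 were in the table, with 1 in each direction. A gene outside the table was either not tested or not called by the authors, so its level and direction are not known here. Leaving out the 3 members, 1 of the 77 annotated genes on the retinoid and aldehyde dehydrogenase lists was in the table. Beside it stands 1.67% of all genes tested, but how many of the listed genes were tested is not known. Taking all these lists together, 4 of 80 annotated genes were in the table, beside the same 1.67%, with 1 higher and 3 lower. Their median ratio was −1.43 against 0.87 over all 250 genes. Since 3 of the 4 are the members, chosen for their differences, neither the count nor the median is a result about the lists. Tgm2 is the only gene among the 4 that is not a member, but the lists were written with earlier results of these data known.

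The genes whose levels lay nearest to each of the 3 were found by the distance between log2(FPKM + 1) values over the 2 libraries. The gene nearest to Aldh1a2 was Nrp2, a co-receptor of semaphorins, at 67.5 FPKM in the mutant library and 15.8 FPKM in the control library. The next was Acta2, the smooth muscle actin, at 88.8 FPKM in the mutant and 24.0 FPKM in the control, and then Foxf1a, a forkhead factor of gut mesenchyme, at 76.6 FPKM in the mutant and 8.17 FPKM in the control. Their distances from Aldh1a2 were 0.723 to 0.893, larger than any found for the nearest genes of Rdh10 and Aldh1b1. The gene nearest to Rdh10, at a distance of 0.0482, was Kctd12, an auxiliary subunit of the GABA-B receptor, at 9.03 FPKM in the mutant and 30.4 FPKM in the control. It was followed by Tril, an accessory protein of a Toll-like receptor, at 8.67 FPKM in the mutant and 29.0 FPKM in the control, and by Des, the muscle intermediate filament desmin, at 10.5 FPKM in the mutant and 33.4 FPKM in the control. All 3 neighbours of Rdh10 were thus lower in the mutant by about the same fold. The gene nearest to Aldh1b1 was Rgs5, a gene of pericytes, at 5.73 FPKM in the mutant and 32.9 FPKM in the control. It was followed by Lyz2, the lysozyme of macrophages, at 7.35 FPKM in the mutant and 28.1 FPKM in the control, and by Kctd12. Rdh10 and Aldh1b1 were 0.523 apart. With 2 libraries, any genes of like level and like fold come out near each other by this measure.

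Cell type markers also differed between the libraries, and in bulk tissue fewer cells of a type and less RNA per cell cannot be told apart. The marker lists were written with earlier results of these data known, so their counts are descriptions only. Beside the counts here and in the following paragraphs, the table holds 1.67% of all genes tested. How many of the listed markers were tested is not known. Of the table, 48.4% was higher and 45.2% lower in the mutant. Of 14 genes listed as pancreatic mesenchyme markers, 4 were in the table and 10 outside it. The list is not specific to the pancreas, since it includes Foxf1a, a factor of gut mesenchyme. Foxf1a, Foxf2 and the growth factor gene Fgf10 were higher, as was Aldh1a2, and the spleen factor Tlx1 was lower. The summed level of the 4 was 135.0 FPKM in the mutant library and 36.2 FPKM in the control library. Most of it was Foxf1a (76.6 FPKM) and Foxf2 (42.0 FPKM) in the mutant, and Tlx1 (23.4 FPKM) in the control. Of 9 smooth muscle and pericyte markers 7 were in the table, 4 higher and 3 lower, with sums of 181 FPKM in the mutant and 133.5 FPKM in the control. The higher 4 were Acta2, Actg2, Cnn1 and Myh11, and the lower 3 were Des, Rgs5 and Kcnj8. Their part in the difference of Aldh1a2 was not tested.

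Aldh1a2 is also known from the mesothelium, the cell layer around the organ. Of 11 mesothelial markers, Wt1 and Msln were in the table. Wt1, a transcription factor of mesothelium, had 4.79 FPKM in the mutant library against 26.2 FPKM in the control library, the opposite direction to Aldh1a2. Msln stayed under 1 FPKM, at 0.920 FPKM in the mutant and 0.0695 FPKM in the control, the direction of Aldh1a2. The other 9 mesothelial markers are outside the table. The part of the mesothelium in the difference of Aldh1a2 was not tested.

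Markers of pancreatic progenitor epithelium, the cells that Aldh1b1 marks, were lower in the 3 cases in the table of 14 annotated. Cpa1, a carboxypeptidase that marks the tips of the early bud, had 3.39 FPKM in the mutant library against 277 FPKM in the control library. Nkx2-2, a homeobox factor, had 2.64 FPKM in the mutant library against 15.9 FPKM in the control library. Prox1, another homeobox factor, had 2.81 FPKM in the mutant library against 10.2 FPKM in the control library. The sum of the 3 was 8.85 FPKM in the mutant and 303 FPKM in the control, where most of it is Cpa1. Pdx1, Ptf1a and Sox9, which define these cells, are outside the table. Their part in the difference of Aldh1b1 was not tested.

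Blood, neural, liver and endothelial markers were the remaining lists. The lists do not cover every cell type, and none was written for gut epithelium or skeletal muscle. The 4 blood markers that the table holds of 11 annotated were lower, with sums of 29.2 FPKM in the mutant and 168 FPKM in the control. Liver markers in the table, 3 of 6, were also lower, with sums of 112.6 FPKM in the mutant and 296.5 FPKM in the control. Most of each sum is Apoe, at 76.7 FPKM in the mutant and 193.7 FPKM in the control. The 5 neural and neural crest markers in the table, of 8, were higher, with sums of 86.4 FPKM in the mutant and 16.7 FPKM in the control. The table held 0 of 8 endothelial markers. The part of these cells in the differences of the 3 genes was not tested.

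**Figure D3:**
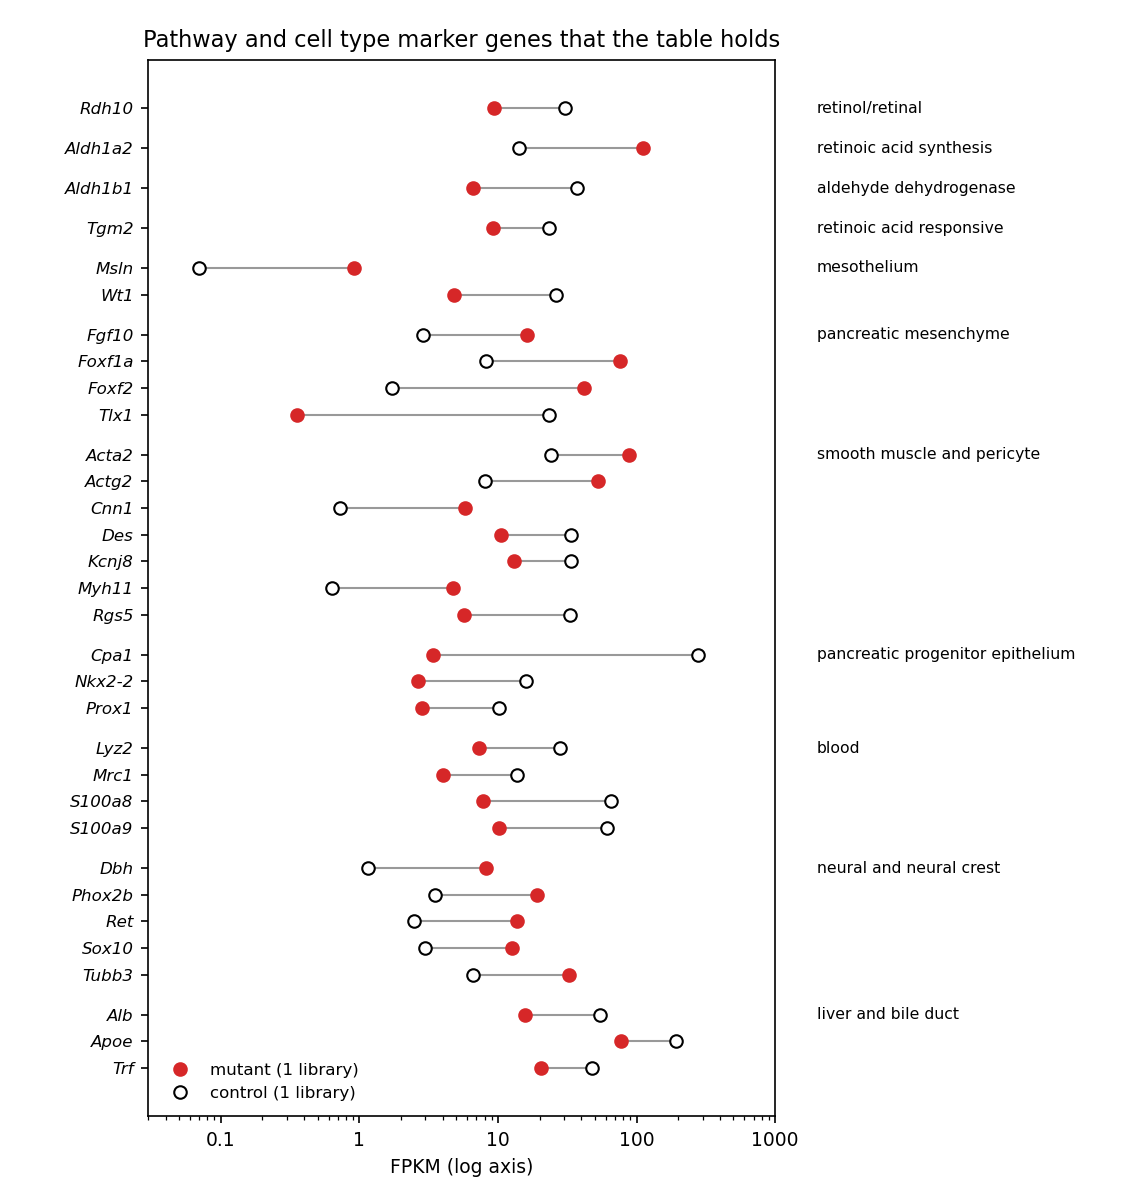
FPKM on a log axis of every gene of the retinoid, aldehyde dehydrogenase and cell type marker lists that the table holds, with the mutant library in red and the control library in open circles; each point is 1 library and the list is named on the right. In the mutant, Aldh1a2 lies to the right of its control value, and Rdh10, Aldh1b1 and Tgm2 lie to the left of theirs. The mesenchyme list and the smooth muscle and pericyte list each hold genes that differ in both directions.

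Of the alternatives run, only centring could turn a direction, and only for Aldh1a2, whose direction it did not turn. Centring lowers every ratio, so Rdh10 and Aldh1b1, already lower in the mutant, could not turn. It subtracts 1.11, the median ratio of the genes of the table that reach 1 FPKM in 1 library, and it changed the sizes most. It gave 1.77 for Aldh1a2, −2.71 for Rdh10 and −3.43 for Aldh1b1. That median comes from genes chosen for change, so it need not be near that of all genes tested.

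**Figure D4:**
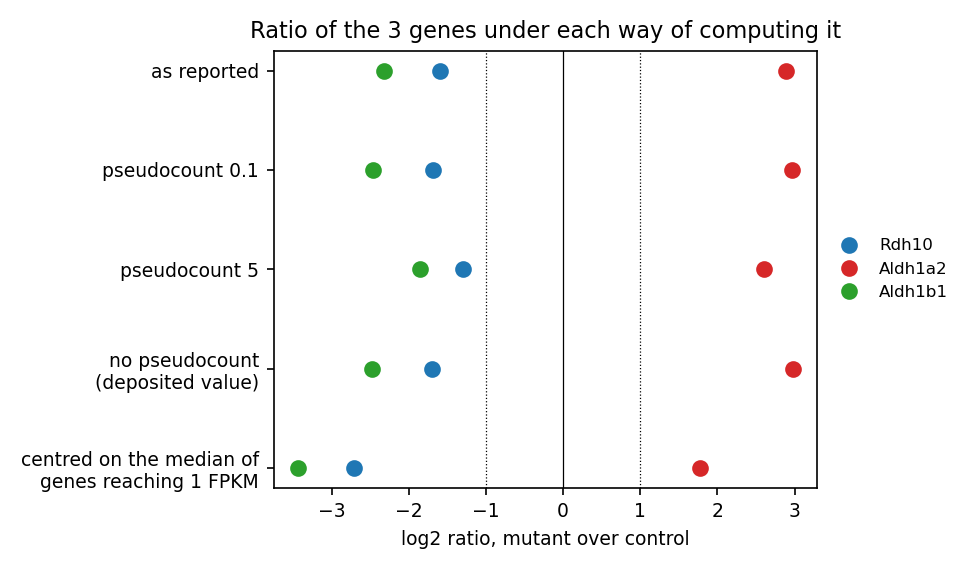
log2 ratio of mutant over control for the 3 genes under 5 ways of computing it, from top to bottom as reported, with a pseudocount of 0.1 or 5 FPKM, with none, and with the median of genes reaching 1 FPKM in 1 library subtracted; dotted lines mark a ratio of 1 in either direction. Aldh1a2 stays above 1 at 1.77 or more, and Rdh10 and Aldh1b1 stay below −1 throughout.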

How the data were processed

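Whole pancreata were pooled and sequenced as 1 library per genotype. Per the labels, reads were aligned to mm9 with TopHat 2.0.4, allowing 4 mismatches and up to 10 hits. DESeq, Cufflinks and CASAVA 1.8.2 appear in the submitters' processing notes, and the program behind the calls is not stated for certain. The authors deposited FPKM per library, a log2 fold change with no pseudocount (mutant over control), a test statistic (a score of opposite sign), and a p-value and q-value for each of 250 genes, all with q up to 0.0496. How libraries were scaled is not stated there.

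Log2 ratios were computed with 1 FPKM added. The number of genes tested was inferred from q times rank over p in 96 genes with p above 0.0001, a step tested on simulated data. Positions are 1-based on mm9 and were compared with GENCODE vM1. No test was run, since 1 library per genotype leaves no spread. Named genes are the 3 members, every listed gene in the table, the 3 nearest in level and table genes within 1 Mb. The members and lists were chosen with earlier results of these data known. Python 3.11.15, pandas 2.3.3, numpy 2.4.6 and matplotlib 3.10.9 were used.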

Additional observations from a re-analysis of the deposited data

How the results depend on the processing

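Of the 9 alternatives, 3 change the pseudocount and cannot turn a direction, and 5 leave the ratios as they are. Centring, the remaining 1, subtracts a positive value, so it could only lower the ratios, and it did not turn that of Aldh1a2. For Rdh10, Aldh1a2 and Aldh1b1 in that order, they were −1.69, 2.96 and −2.47 with a pseudocount of 0.1, −1.30, 2.60 and −1.85 with 5, −1.70, 2.97 and −2.48 with none (the authors' deposited table), and −2.71, 1.77 and −3.43 with centring. At 4-fold Rdh10, at −1.60, is not called, and the 3 lower listed genes become 1. Over the whole table, the counts of higher genes (121 as reported) were 69 with pseudocount 5, 50 at 4-fold, 38 after centring (with 114 lower) and 70 with 1 FPKM in both libraries. Those of lower genes (113 as reported) were 75 with pseudocount 5, 37 at 4-fold and 66 with q limited to 0.01. These shifts follow from how each alternative is built. No paired analysis was possible because there is 1 library per genotype, and no replicate could be left out. Depth per library is unknown, so no counting error is given.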

Other observations

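Other genes of enzymes that act on small molecules differed in both directions, and those named here were chosen after their values were seen. Ugt2b35, a glucuronosyltransferase, had 1.05 FPKM in the mutant library against 6.79 FPKM in the control library. Cyp46a1, the cholesterol hydroxylase, had 1.14 FPKM in the mutant library against 6.48 FPKM in the control library. Tdo2, which degrades tryptophan, had 7.24 FPKM in the mutant library against 0.484 FPKM in the control library. Pde5a, a phosphodiesterase of cyclic GMP, had 43.1 FPKM in the mutant library against 10.5 FPKM in the control library.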
